A study of Rattus norvegicus with 12 samples.

Results

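The corpus luteum (CL) of the pregnant rat makes estradiol (E2) through aromatase, and anastrozole, an aromatase inhibitor (AI), blocks that step. The genes described here were 119 of 14506 measured genes whose luteal mRNA differed from vehicle on day 16 of pregnancy alike under AI alone and under AI with E2 given back, so that the added E2 did not return them to the vehicle level. Of these, 87 were lower and 32 were higher than in vehicle rats. All were pregnant Wistar rats, and 4 groups of 3 animals were measured. D12 rats were untreated on day 12. On day 16, VEH rats had received vehicle, AI rats had received anastrozole at 1 mg/kg by mouth daily from day 12, and AI+E2 rats had received the same anastrozole together with 10 µg E2 per day under the skin, each for 4 days. D12 thus differed from the other groups in both the stage of pregnancy and the handling of a treatment, which cannot be told apart here. The drug reached the whole animal, and AI+E2 alone received injections of E2.

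The members were chosen on measured values. For each gene with a symbol of its own, the difference of group means from VEH had to reach 1.5-fold, 0.58 on the log2 scale, in the same direction in AI and in AI+E2, and AI+E2 had to lie within 0.3 of AI. A set of 17 genes was left out by name, of which 16 were measured and 1, Plin2, met the thresholds. The 3 differences among VEH, AI and AI+E2 are thus given below as a description and support nothing, calls and intervals included, and both differences from VEH were taken from the same 3 VEH arrays.

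Aromatase converts androgens to estrogens in the steroidogenic cells of the CL, and E2 acts mainly through its nuclear receptors on gene transcription, beside LH and prolactin as a luteotrophic hormone. The mid-pregnancy CL is a growing gland of luteal cells within a dense bed of capillaries, pericytes and matrix. Each array carried luteal RNA of 1 rat, and in bulk tissue fewer cells of a type cannot be told apart from less RNA per cell.

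The 12 arrays were alike in scale, with medians of 6.51 to 6.56 and correlations between arrays of 0.982 to 0.997. Markers of luteal cells were high in every array, and their mean over 12 genes was lowest in VEH, at 10.61 to 10.64, with 10.95 to 11.02 in D12, 10.89 to 11.05 in AI and 11.17 to 11.22 in AI+E2. Of the other tissues that could be carried along, 10 of 11 fat markers and 8 of 10 oviduct markers lay below the median of all genes. So did 8 of 11 follicle and oocyte, 6 of 8 red blood cell and 10 of 17 lymphocyte markers. The mean of the red blood cell markers was 6.555 to 6.57 in AI+E2 and 6.637 to 7.152 in the other arrays. For 21 macrophage markers, 2 of them below that median, the mean was 8.035 to 8.186 in D12 and VEH and 8.205 to 8.361 in AI and AI+E2. The mean of 16 smooth muscle and pericyte markers was 8.40 to 8.62 in VEH and 8.06 to 8.26 in the other 9 arrays, and that of 49 endothelial markers was 8.02 to 8.09 in VEH and 7.68 to 7.85 in the others. The vessel markers were thus highest in VEH on average, as the lowered genes were. The luteal markers were lowest there on average, as the raised genes were. Their part in either was not tested. The lists hold members themselves, Fdx1 of the luteal, Abcc9 of the muscle and Cd34 and Calcrl of the endothelial markers. At limma's adjusted p under 0.05, 6 of the 12 luteal markers were higher and 1 lower in AI than in VEH. In AI+E2, 4 were higher and 0 lower. Over all genes, 5.91% were higher and 11% lower in AI, and 6.11% and 6.9% in AI+E2.

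AI lowered 351 genes and raised 181 by at least the 1.5-fold threshold, 532 in all, and 194 genes were past it in both AI and AI+E2. The 119 members are the part of these with AI and AI+E2 close together. The median difference from VEH was -0.79 in both AI and AI+E2 for the lowered genes. For the raised genes it was 0.79 in AI and 0.76 in AI+E2, and over all genes it was 0.01 and -0.01. A gene is called here where its adjusted p from limma over all genes was under 0.05. Under AI, limma called 87 of 87 lowered genes lower and 31 of 32 raised genes higher than VEH, where 11% of all genes were lower and 5.91% higher, the exception being Abcb1b. Under AI+E2, 87 of 87 and 32 of 32 were called, where 6.9% of all genes were lower and 6.11% higher. These are the contrasts that chose the members, and nothing is read from the calls. The 3 VEH arrays lay outside the range of the 6 AI and AI+E2 arrays for 118 members, Abcb1b being the exception, and for 14.1% of all genes.

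**Figure D1:**
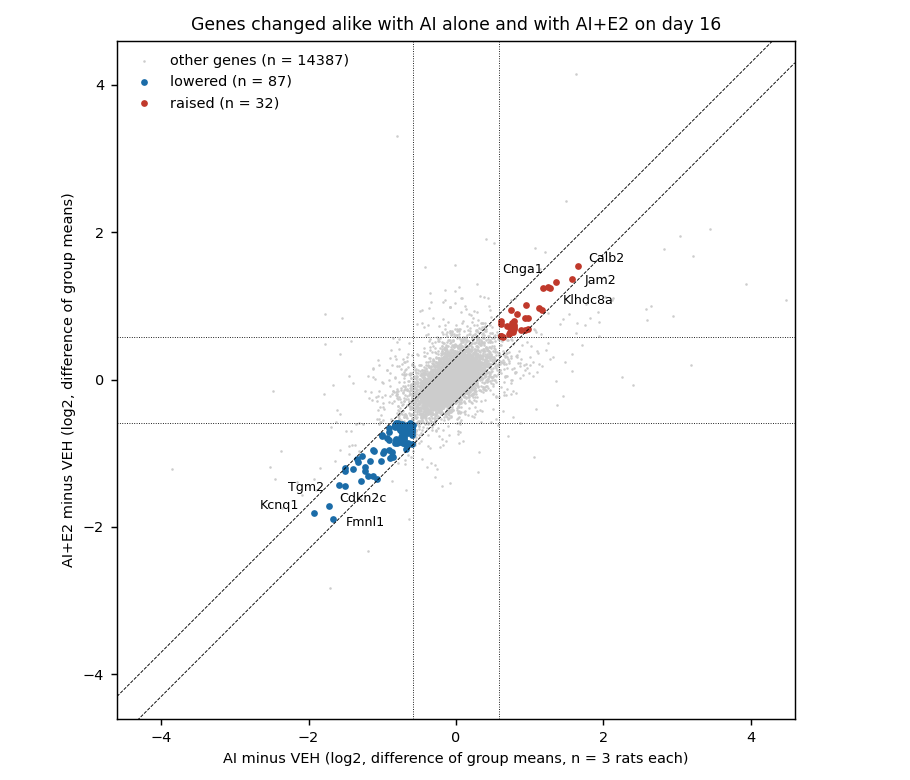
Difference of group means from VEH in AI (horizontal axis) and in AI+E2 (vertical axis), both on the log2 scale, for 14506 genes, with 3 rats per group. Dotted lines mark a 1.5-fold difference, dashed lines the window of 0.3 between AI+E2 and AI, blue points the 87 lowered genes and red points the 32 raised genes, which sit along the diagonal out to Kcnq1 at -1.93 and -1.80 and Calb2 at 1.65 and 1.55.

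The choice of members fixed AI+E2 close to AI. The 95% interval of AI+E2 minus AI reached a median of 0.19 to either side, with a range from 0.12 to 0.52, and was not corrected for that choice. AI+E2 was above AI for 44 of 87 lowered and for 10 of 32 raised genes.

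Kcnq1, a voltage-gated potassium channel, was lowered most, 3.64-fold on the mean of AI and AI+E2. It read 6.72, 6.74 and 6.74 on day 12, 8.67, 8.91 and 8.56 in VEH, 6.85, 6.81 and 6.71 in AI and 7.0, 6.86 and 6.87 in AI+E2. Only the VEH arrays were high, and the other 9 lay between 6.71 and 7.0. Cdkn2c, an inhibitor of the cyclin D kinases CDK4 and CDK6, had the same shape, with 7.03, 6.96 and 7.0 on day 12, 8.47, 8.63 and 8.82 in VEH, 7.09, 7.02 and 6.63 in AI and 6.90, 6.85 and 7.04 in AI+E2. Mal2, a membrane protein of apical transport, read 5.85, 6.06 and 5.96 on day 12, 7.82, 7.36 and 7.0 in VEH, 5.90, 5.89 and 5.86 in AI and 5.82, 6.07 and 5.95 in AI+E2. Its VEH arrays varied more than the others but stayed clear of them.

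Abcc9 encodes SUR2, the regulatory subunit of the potassium channels that sense ATP in vascular muscle and pericytes. It read 8.85, 9.09 and 9.02 on day 12, 10.20, 10.35 and 10.20 in VEH, 8.75, 8.86 and 8.61 in AI and 8.99, 8.99 and 9.02 in AI+E2. Ddr2, a receptor tyrosine kinase for collagen, read 8.17, 8.15 and 8.31 on day 12, 9.30, 9.66 and 9.32 in VEH, 7.90, 8.04 and 7.84 in AI and 8.25, 8.08 and 8.33 in AI+E2. In both genes AI+E2 sat at the day 12 level and slightly above AI, by 0.26 and 0.29, which is near the edge of the window. Htr2a, the serotonin 2A receptor, read 5.88, 5.96 and 5.80 on day 12, 7.04, 7.03 and 7.23 in VEH, 5.86, 5.78 and 5.79 in AI and 5.69, 5.72 and 5.74 in AI+E2. Mfap3l, a membrane protein of the immunoglobulin superfamily, varied most among VEH rats, with 6.53, 6.39 and 6.46 on day 12, 7.31, 8.61 and 7.87 in VEH, 6.50, 6.60 and 6.49 in AI and 6.75, 6.68 and 6.70 in AI+E2. These 4 genes were again high in VEH alone.

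In 3 others of the 10 genes lowered most, day 12 lay between VEH and the inhibitor groups. Fmnl1, a formin that builds actin filaments, read 7.90, 7.93 and 7.85 on day 12, 9.31, 8.96 and 8.86 in VEH, 7.31, 7.38 and 7.44 in AI and 7.15, 7.13 and 7.18 in AI+E2. Tgm2, a transglutaminase that cross-links matrix proteins, read 10.48, 10.43 and 10.47 on day 12, 11.32, 11.11 and 11.05 in VEH, 9.59, 9.63 and 9.49 in AI and 9.73, 9.71 and 9.74 in AI+E2. Glrx5, a mitochondrial protein of iron-sulfur cluster assembly, read 10.00, 10.06 and 10.10 on day 12, 10.49, 10.65 and 10.41 in VEH, 9.32, 9.43 and 9.23 in AI and 9.21, 9.13 and 9.30 in AI+E2. No array of one of these 3 levels overlapped another level.

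Calb2, the calcium-binding protein calretinin, was raised most, 3.03-fold on the mean of AI and AI+E2. It read 8.33, 7.83 and 8.53 on day 12, 6.92, 7.25 and 7.16 in VEH, 8.86, 9.03 and 8.40 in AI and 8.71, 8.46 and 8.79 in AI+E2. The VEH arrays were low and the day 12 arrays overlapped those of the inhibitor groups. Jam2, a junctional adhesion molecule, read 10.91, 10.85 and 10.93 on day 12, 9.90, 10.08 and 10.02 in VEH, 11.54, 11.65 and 11.53 in AI and 11.38, 11.33 and 11.39 in AI+E2, with day 12 between the others and no overlap. Fdx1, ferredoxin, which passes electrons to the mitochondrial P450 enzymes of steroid synthesis, read 10.65, 10.52 and 10.80 on day 12, 10.06, 10.01 and 10.11 in VEH, 11.21, 11.24 and 11.28 in AI and 11.30, 11.21 and 11.39 in AI+E2. Again the day 12 arrays fell between, and the inhibitor arrays were 2.32-fold above VEH.

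Fads1, the delta-5 desaturase of polyunsaturated fatty acids, read 11.55, 11.60 and 11.58 on day 12, 10.59, 10.34 and 10.65 in VEH, 11.65, 11.79 and 11.64 in AI and 11.49, 11.45 and 11.48 in AI+E2. Fmo2, a flavin monooxygenase, read 7.85, 7.82 and 8.25 on day 12, 7.21, 7.13 and 7.15 in VEH, 7.99, 8.20 and 8.12 in AI and 8.10, 8.09 and 8.32 in AI+E2. Both were low in VEH alone, as was Hao2, a peroxisomal hydroxyacid oxidase, at 8.03, 7.63 and 8.10 on day 12, 7.01, 7.11 and 7.01 in VEH, 7.64, 7.72 and 7.85 in AI and 7.83, 7.68 and 7.80 in AI+E2. Mme, the membrane metalloprotease neprilysin, read 9.92, 9.95 and 10.03 on day 12, 9.24, 9.18 and 9.25 in VEH, 10.34, 10.39 and 10.33 in AI and 10.20, 10.08 and 10.30 in AI+E2. Fkbp5, a co-chaperone of steroid receptors whose gene responds to androgens, glucocorticoids and progestins, read 8.95, 8.58 and 8.86 on day 12, 8.28, 8.29 and 8.18 in VEH, 9.15, 9.28 and 9.28 in AI and 9.10, 9.03 and 9.15 in AI+E2. For Mme and Fkbp5 the 3 levels were in the order VEH, D12 and inhibitor groups, without overlap.

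In the other 3 of the 10 genes raised most, the day 12 mean lay nearer to VEH than to the inhibitor groups. Cnga1, a cyclic nucleotide-gated cation channel, read 5.62, 5.06 and 5.53 on day 12, 5.11, 4.95 and 4.93 in VEH, 6.29, 6.63 and 6.15 in AI and 6.23, 6.19 and 6.55 in AI+E2. Klhdc8a, a kelch domain protein, read 8.92, 8.89 and 9.18 on day 12, 8.56, 8.49 and 8.52 in VEH, 9.94, 9.93 and 9.54 in AI and 9.79, 9.79 and 9.74 in AI+E2. Plppr5, a phospholipid phosphatase-related membrane protein, read 6.52, 7.06 and 6.71 on day 12, 6.27, 6.58 and 6.16 in VEH, 7.70, 8.0 and 7.06 in AI and 7.61, 7.57 and 7.60 in AI+E2. Cnga1 and Plppr5 overlapped between day 12 and VEH, and 1 AI array of Plppr5 lay at its highest day 12 value.

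**Figure D2:**
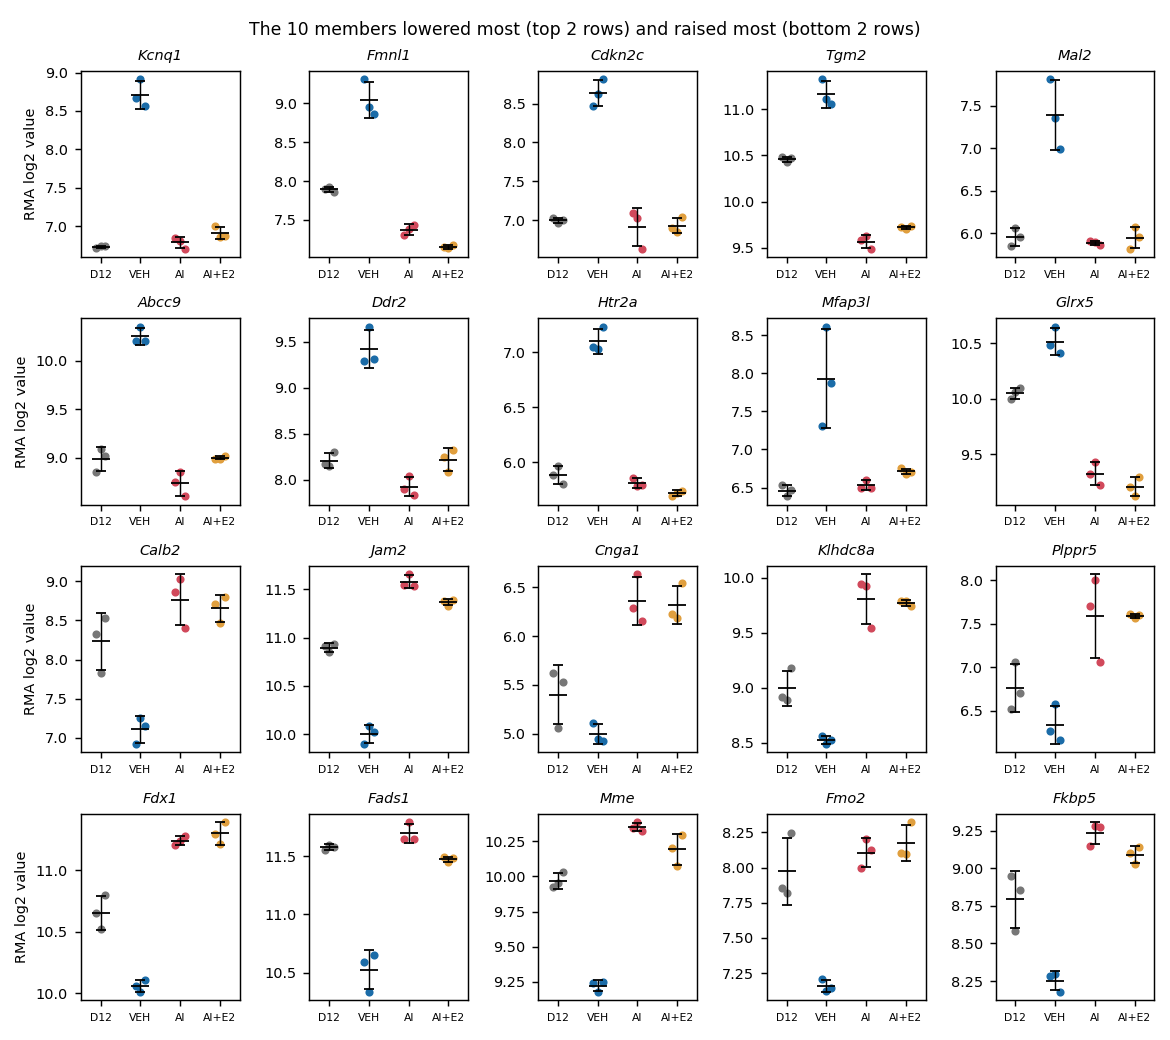
RMA log2 value (vertical axes, each with its own range) of each rat in D12, VEH, AI and AI+E2 for the 10 genes lowered most and the 10 raised most. Points are arrays and bars are mean ± SD with n = 3, and in every panel the AI and AI+E2 points lie on the same side of VEH.

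Promoter sequences were read for 100 of the 119 members, 69 lowered and 31 raised, from the RefSeq promoters of the rat build GRCr8. The 250 bases before the start of transcription were searched on both strands for sites of factors tied to steroid hormones or to common promoter elements. Shown are the 2 lowered and the 2 raised genes that changed most among those with an entry, Fmnl1 (chr10:88615827-88616076, plus strand), Cdkn2c (chr5:129644892-129645141, minus strand), Jam2 (chr11:37317310-37317559, plus strand) and Cnga1 (chr14:35920698-35920947, plus strand), and the pair Tom1l2 (chr10:45657522-45657771, minus strand) and Drc3 (chr10:45658485-45658734, plus strand). Tom1l2 and Drc3 start 1214 bases apart on opposite strands and both were lowered. The sequences run 5′ to 3′ toward the start, and capitals mark every match to a searched motif.
Fmnl1: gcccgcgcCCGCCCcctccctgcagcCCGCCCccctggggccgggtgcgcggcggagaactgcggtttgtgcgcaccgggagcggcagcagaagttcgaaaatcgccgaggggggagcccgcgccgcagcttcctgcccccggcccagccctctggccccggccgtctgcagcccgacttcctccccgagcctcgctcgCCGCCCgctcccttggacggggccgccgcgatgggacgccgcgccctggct
Cdkn2c: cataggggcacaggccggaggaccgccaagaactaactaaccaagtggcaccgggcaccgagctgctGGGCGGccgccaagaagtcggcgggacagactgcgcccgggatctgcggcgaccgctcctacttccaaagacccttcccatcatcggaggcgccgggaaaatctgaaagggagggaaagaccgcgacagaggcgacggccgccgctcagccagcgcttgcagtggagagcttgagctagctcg
Jam2: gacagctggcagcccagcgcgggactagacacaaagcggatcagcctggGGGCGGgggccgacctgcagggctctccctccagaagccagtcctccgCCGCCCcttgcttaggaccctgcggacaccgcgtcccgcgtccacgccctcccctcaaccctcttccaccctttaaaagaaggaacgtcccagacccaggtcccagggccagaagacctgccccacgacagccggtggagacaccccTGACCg
Cnga1: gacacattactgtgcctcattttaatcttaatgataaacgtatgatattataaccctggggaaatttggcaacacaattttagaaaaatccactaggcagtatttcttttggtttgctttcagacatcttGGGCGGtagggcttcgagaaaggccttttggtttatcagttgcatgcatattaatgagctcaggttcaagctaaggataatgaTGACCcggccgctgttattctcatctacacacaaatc
Tom1l2: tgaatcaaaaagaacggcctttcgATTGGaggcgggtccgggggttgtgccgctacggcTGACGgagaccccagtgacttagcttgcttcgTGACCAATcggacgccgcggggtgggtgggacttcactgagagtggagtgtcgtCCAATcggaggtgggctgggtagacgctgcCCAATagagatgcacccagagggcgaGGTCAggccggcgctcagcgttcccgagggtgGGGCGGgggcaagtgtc
Drc3: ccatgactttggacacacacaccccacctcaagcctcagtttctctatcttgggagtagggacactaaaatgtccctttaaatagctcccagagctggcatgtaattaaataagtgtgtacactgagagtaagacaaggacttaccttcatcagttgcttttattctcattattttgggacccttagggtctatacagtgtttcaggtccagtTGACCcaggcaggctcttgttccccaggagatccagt

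A palindromic estrogen response element (AGGTCA, 3 bases, TGACCT) was found in 0 of these members, in 0% of measured genes and in 0.00364% of all genes of the promoter table. Its single arm (GGTCA or TGACC) was found in 36.2% of lowered and 41.9% of raised genes, beside 34.5% of the 11950 measured genes with an entry and 37.2% of all 27456. The androgen and glucocorticoid element (AGAACA, 3 bases, TGTTCT) was found in 0 of these members, in 0% of measured genes and in 0.00364% of all. The NR5A site (AAGGTCA), which contains that arm, was found in 0 lowered genes and in 3 raised genes, Fmo2, Igsf11 and Kcnh1, beside 3.06% of measured genes. The GC box (GGGCGG) was found in 58% of lowered and 77.4% of raised genes, beside 48% of measured genes and 33.5% of all.

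The CCAAT box (CCAAT) was found in 34.8% of lowered and 51.6% of raised genes, beside 36.2% of measured genes, and Tom1l2 held 4 of them. The E-box (CACGTG) was found in 11.6% and 6.45%, beside 7.08%, the ETS site (CCGGAA) in 13% and 12.9%, beside 18.7%, and the TATA box (TATAAA) in 5.8% and 6.45%, beside 11.5%. The full cyclic AMP response element (TGACGTCA) was found in 1 member, Plk2, and its shorter form (TGACG), which it contains, in 20.3% and 6.45%, beside 23.8%. The sterol regulatory element (TCACNCCAC) was found in 0 members, beside 0.979% of measured genes. A match describes letters only, and no site was tested for binding.

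The day 12 arrays were not used by the rule and place the members on the way from day 12 to day 16. Most lowered genes rose and most raised genes fell from day 12 to day 16 in VEH rats, while the inhibitor groups stayed near day 12 for some members and moved the other way for others. Setting the inhibitor level to 0% and VEH to 100%, the day 12 mean stood at a median of 33.7% for lowered genes (quartiles 8.08% and 56.6%) and at 50.2% for raised genes (quartiles 33.1% and 67.1%). It lay between both levels for 73 of 87 lowered and 28 of 32 raised genes. The members were chosen for a gap between these levels, which leaves room for day 12 to fall between them. The share over all genes was not computed, so these positions are a description only.

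From day 12 to VEH, limma called 69 of 87 lowered genes higher and 0 lower, beside 6.91% and 3.23% of all genes. It called 20 of 32 raised genes lower and 0 higher. At an unadjusted p under 0.05 the counts were 83 higher and 0 lower among lowered genes and 26 lower and 0 higher among raised genes. The median change was 0.55 and -0.42, against -0.02 over all genes. From day 12 to the mean of AI and AI+E2, 42 lowered genes fell and 1, Thy1, rose, and 23 raised genes rose and 0 fell, where 4.61% of all genes were called higher and 3.76% lower. At an unadjusted p under 0.05 these were 55 lower and 5 higher, and 26 higher and 0 lower. The medians were -0.27 and 0.44. VEH, AI and AI+E2 arrays had all served to choose the members, so the sign and size of these changes were in part fixed by that choice. The counts are not independent evidence of direction. Sizes, errors and p values of single members in both comparisons, here and below, were not corrected for that choice and are a description.

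**Figure D3:**
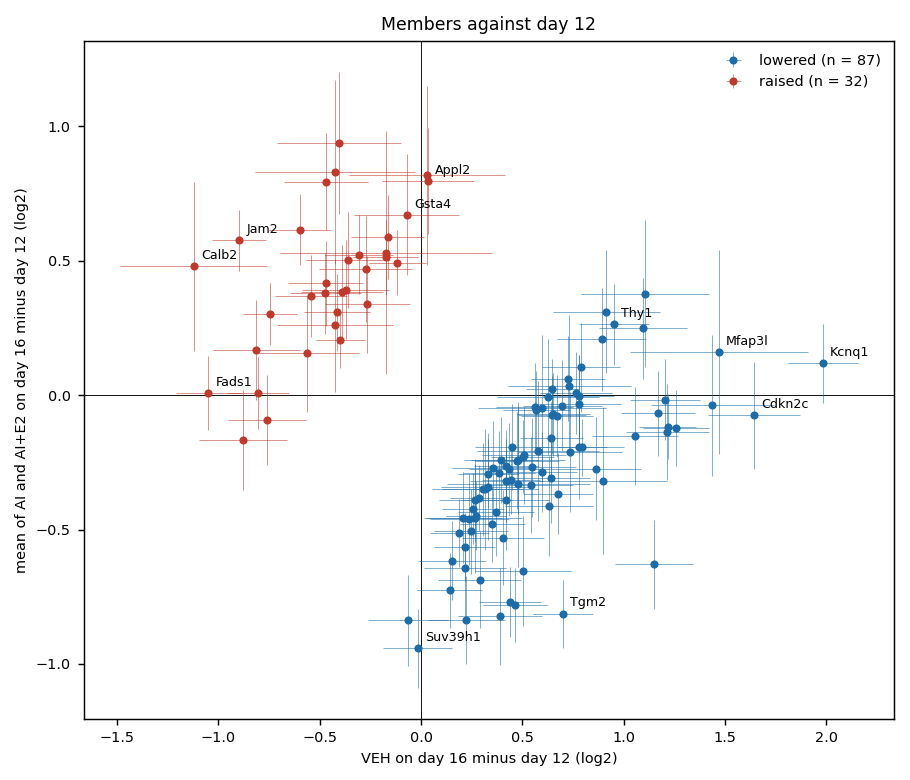
Change from day 12 to VEH (horizontal axis) and to the mean of AI and AI+E2 (vertical axis) in log2 units for the 87 lowered (blue) and 32 raised (red) genes, with bars for the 95% interval of each. Kcnq1 and Cdkn2c lie far to the right at the level of 0, Suv39h1 lies below 0 on the vertical axis and near 0 on the horizontal one, and Thy1 is above 0 on both.

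Members were split by their calls in both comparisons with day 12. The share of all genes with each pattern was not computed. Choosing members for a gap between VEH and the inhibitor groups favours these patterns, so their counts are a description only. In 42 lowered and 7 raised genes, VEH had moved from day 12 and the inhibitor groups were not called different from it. Kcnq1 rose 3.96-fold in VEH (log2 1.98 ± 0.08 SE, limma's adjusted p = 7.9e-10), and its change in the inhibitor groups was 0.12 ± 0.07 (adjusted p = 0.36). Next in VEH among these lowered genes were Cdkn2c at 1.64 ± 0.11, Mfap3l at 1.47 ± 0.21, Mal2 at 1.44 ± 0.14 and Abcc9 at 1.26 ± 0.08. Among these raised genes, the VEH changes were largest for Calb2 at -1.12 ± 0.17, Fads1 at -1.05 ± 0.07, Hao2 at -0.88 ± 0.10 and Fmo2 at -0.81 ± 0.10. Calb2 stood 0.48 ± 0.15 above day 12 in the inhibitor groups with an adjusted p of 0.06, and was called higher there under 5 of the alternative settings, which would place it among genes that moved in opposite directions. Fads1 stood 0.01 ± 0.06 from day 12 in those groups.

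In 26 lowered and 13 raised genes, VEH and the inhibitor groups had moved from day 12 in opposite directions. Tgm2 changed by 0.70 ± 0.07 in VEH and by -0.81 ± 0.06 in the inhibitor groups. For Glrx5 these changes were 0.46 ± 0.07 and -0.78 ± 0.06. Among raised genes they were -0.90 ± 0.06 and 0.58 ± 0.05 for Jam2, and -0.60 ± 0.07 and 0.62 ± 0.06 for Fdx1. In these 4 genes the arrays of day 12 lay between those of the other groups.

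In 16 lowered and 10 raised genes, the inhibitor groups had moved and VEH was not called different from day 12. Suv39h1, a histone H3 lysine methyltransferase, read 9.17, 9.27 and 9.38 on day 12, 9.27, 9.19 and 9.31 in VEH, 8.42, 8.49 and 8.24 in AI and 8.35, 8.32 and 8.16 in AI+E2. Its change was -0.94 ± 0.07 in the inhibitor groups (limma's adjusted p = 1.1e-06) and -0.02 ± 0.08 in VEH. Tom1l2, an adaptor of endosomal sorting, changed by -0.84 ± 0.08 in the inhibitor groups and by -0.06 ± 0.09 in VEH. Its neighbour Drc3, a dynein regulatory protein of cilia, changed by 0.40 ± 0.10 in VEH and by -0.53 ± 0.08 in the inhibitor groups. Among raised genes, Appl2, an endosomal adaptor, rose by 0.80 ± 0.09, Vcan, the matrix proteoglycan versican, rose by 0.82 ± 0.16, and Gsta4, a glutathione transferase, rose by 0.67 ± 0.11. The VEH changes of these 3 genes were 0.03 ± 0.11, 0.03 ± 0.18 and -0.07 ± 0.12.

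Of the remaining members, Thy1, a surface glycoprotein of stromal and immune cells, rose in VEH by 0.95 ± 0.08 and in the inhibitor groups by 0.26 ± 0.07. Plk2, Plekha1, Zfp958 and Abcb1b were called in neither comparison. Abcb1b, a drug efflux pump, read 8.67, 7.81 and 7.56 in VEH and 8.31, 8.33 and 9.23 in AI, so that 1 VEH array lay above 2 AI arrays.

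The mean of the 9 day 16 arrays against day 12 is a contrast that is orthogonal to those of the rule. In it 19 lowered genes were called higher and 15 lower, and 10 raised genes higher and 4 lower, beside 4.42% higher and 2.84% lower over all genes. The called genes ran both ways, with medians of -0.003 for lowered and 0.13 for raised genes. Kcnq1 (0.74, limma's adjusted p = 9.5e-06) and Actg2 (0.62, adjusted p = 0.0058) were highest among lowered genes. Suv39h1 (-0.63, limma's adjusted p = 2.8e-05) and Tom1l2 (-0.58, adjusted p = 0.00026) were lowest among them. This mean joins VEH with inhibitor groups that the rule set apart. Kcnq1 had moved by 1.98 in VEH and by 0.12 in the inhibitor groups, and Suv39h1 by -0.02 and -0.94. Without day 12 replicate 1, the number called higher was 16 in place of 29 over both directions of members.

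**Figure D4:**
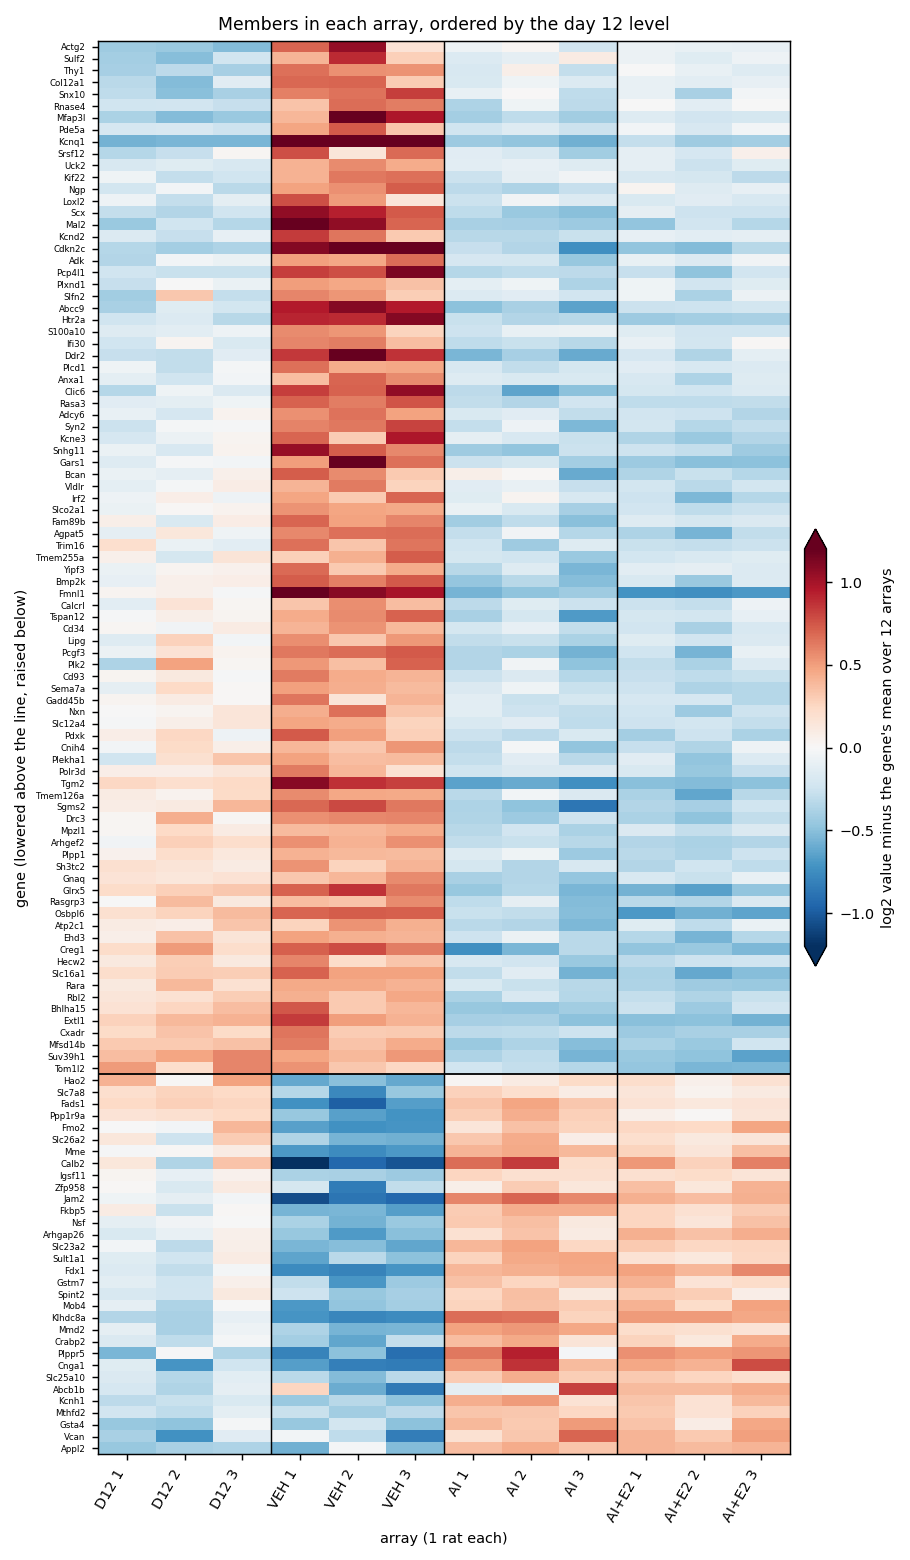
Log2 value minus the gene's own mean over 12 arrays (colour, cut at 1.2 on either side) for the 87 lowered genes above the line and the 32 raised genes below it, with 1 column per rat. Within each block genes are ordered by how near day 12 stood to VEH, so that D12 changes from the inhibitor colour at the top to the VEH colour at the bottom of the lowered block.

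The members are grouped by known role in what follows. The groups were formed after their values were seen and were not tested. Counts of called genes on the lists stand beside shares over all genes of 11% lower and 5.91% higher in AI. In AI+E2 these shares were 6.9% and 6.11%, and 6.91% of all genes were higher in VEH than on day 12. Members were 0.82% of all genes. Vessel wall and contractile genes stood among the lowered genes. Beside Abcc9 and Htr2a they held Pde5a, the cyclic GMP phosphodiesterase of vascular muscle (AI -0.73 and AI+E2 -0.60 from VEH), Actg2, the smooth muscle gamma actin (-0.73 and -0.73), and Gnaq, the G protein that couples receptors such as Htr2a to phospholipase C (-0.83 and -0.61). Of these only Abcc9 was on the list of smooth muscle and pericyte markers, and which cells carried the RNA was not tested. The endothelial genes Cd34 (-0.65 and -0.72), Cd93 (-0.75 and -0.77), Calcrl, the receptor for adrenomedullin and CGRP (-0.66 and -0.62), Plxnd1, a semaphorin receptor (-0.62 and -0.59), and Lipg, endothelial lipase (-0.78 and -0.65), were lowered too. Cd93, Plxnd1 and Lipg were not on the list of endothelial markers and were placed here by known role. Jam2, the junctional adhesion molecule shown above, was raised.

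Of the 49 endothelial markers measured, Cd34 and Calcrl were members, 30 were called lower in AI and 24 in AI+E2, and the median differences from VEH were -0.34 and -0.25. In VEH against day 12, 24 of the 49 were called higher. Of 16 smooth muscle and pericyte markers, Abcc9 was a member, and 7 were called lower in AI, 5 in AI+E2 and 9 higher in VEH against day 12. Matrix genes among the lowered were Col12a1, a fibril-associated collagen (-0.70 and -0.67), Loxl2, a lysyl oxidase (-0.63 and -0.64), Sulf2, a heparan sulfate sulfatase (-0.59 and -0.62), and Scx, the tendon transcription factor scleraxis (-1.33 and -1.11). Vcan was raised (0.79 and 0.79). Of 37 fibroblast and matrix markers measured, 5 were called higher and 14 lower in AI, and 8 higher and 11 lower in AI+E2, so the list ran both ways.

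Ion channels and carriers went both ways. Of 222 channel genes measured on a family list, 4 were lowered members and 1, Kcnh1, was raised (0.79 and 0.72), and Cnga1 stood outside that list. Kcne3, an accessory subunit that binds the Kcnq1 channel, was lowered with it, at 5.99, 5.60 and 6.26 in VEH against 5.18, 5.09 and 5.02 in AI and 4.93, 4.85 and 4.94 in AI+E2, a low level on these arrays. Kcnd2 (-0.91 and -0.71) and Clic6 (-1.35 and -1.07) were the others. Of 329 solute carriers, 3 were lowered and 4 were raised. Lowered were Slc16a1, the monocarboxylate transporter MCT1 (-0.89 and -1.06), Slco2a1, the prostaglandin transporter (-0.71 and -0.75), and Slc12a4, a potassium chloride cotransporter (-0.60 and -0.64). Raised were Slc23a2, a sodium-dependent ascorbate transporter (0.94 and 0.83), Slc26a2, a sulfate transporter (0.78 and 0.65), Slc25a10, the mitochondrial dicarboxylate carrier (0.73 and 0.64), and Slc7a8, a neutral amino acid transporter (0.71 and 0.62).

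Growth and chromatin regulators stood among the lowered genes. They included Cdkn2c, Rbl2, the pocket protein p130 (-0.70 and -0.70), Gadd45b, a stress-induced regulator of growth (-0.60 and -0.65), Pcgf3, a polycomb protein (-1.11 and -0.97), and Suv39h1. No gene of the cell cycle list was a member. Rara, retinoic acid receptor alpha and the only member on the list of textbook estrogen-induced genes, read 8.64, 8.91 and 8.70 on day 12, 8.98, 8.98 and 8.94 in VEH, 8.34, 8.25 and 8.19 in AI and 8.15, 8.10 and 8.08 in AI+E2. Crabp2, which carries retinoic acid to the nucleus, was raised (0.77 and 0.72). Of 25 genes measured on that estrogen list, 3 were called higher and 2 lower in AI, and 2 and 2 in AI+E2.

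Lipid genes were found on both sides. Sgms2, a sphingomyelin synthase (-1.28 and -1.04), Agpat5, a lysophosphatidic acid acyltransferase (-0.86 and -1.04), Osbpl6, an oxysterol-binding protein (-1.07 and -1.35), and Vldlr, the very low density lipoprotein receptor (-0.60 and -0.69), were lowered, and Fads1 was raised (1.17 and 0.95). No gene of cholesterol synthesis was a member. Of 24 measured on that list, 20 were called higher and 1 lower than VEH under AI, and 16 higher and 2 lower under AI+E2. Their median difference from VEH was 1.6 in AI and 0.49 in AI+E2. The median of AI+E2 minus AI was -0.87, so these genes stood nearer to VEH with E2 than without it.

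Among the raised genes were 5 of drug metabolism and efflux, Fmo2 (0.95 and 1.01), Gsta4 (0.79 and 0.69), Gstm7, a further glutathione transferase (0.79 and 0.74), Sult1a1, a phenol sulfotransferase (0.88 and 0.67), and Abcb1b (0.61 and 0.80). On the list of 45 such genes measured, which held 3 of them, 13 were called higher and 5 lower in AI, and 15 and 1 in AI+E2. Mthfd2, the mitochondrial folate enzyme, was raised (0.63 and 0.59), and so were Nsf, the ATPase of vesicle fusion (0.73 and 0.72), and Spint2, a serine protease inhibitor (0.61 and 0.60). Fkbp5 was the only member among 25 androgen-responsive genes measured, of which 1 was called higher and 6 lower in AI and 3 and 6 in AI+E2.

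Of all 119 members, 28 stood on a list or in a family named for this work and 91 on none. Other probe sets existed for 6 members, Abcc9, Fam89b, Gsta4, Mthfd2, Suv39h1 and Zfp958, and all 6 differed from VEH in the same direction in both groups. The second probe set of Abcc9 gave -1.31 and -1.02, and that of Fam89b, which shares 2 symbols, gave -0.28 and -0.28. Of the members, 14 had a mean below the median of 6.86 over all genes and arrays, where RMA differences tend to be compressed.

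The thresholds cut through a continuum. Just inside the 1.5-fold threshold, by the smaller of the differences in AI and AI+E2, lay Plxnd1 at -0.5859, Atp2c1 at -0.5863 and Rnase4 at -0.5864 among lowered genes, and just outside lay Mbp at -0.5846, Gtse1 at -0.5802 and Hspa13 at -0.5782. Among raised genes Mthfd2 at 0.5851, Igsf11 at 0.592 and Spint2 at 0.598 were inside, and Mgst2 at 0.577, Soat1 at 0.574 and Slc27a1 at 0.572 were outside. For the window on AI+E2 minus AI, Ddr2 at 0.293, Osbpl6 at -0.279 and Clic6 at 0.276 were inside and Ppa1 at -0.33, Aass at 0.339 and Bmyc at -0.344 were outside among lowered genes. Mmd2 at -0.295, Ppp1r9a at -0.263 and Fads1 at -0.222 were inside and Sfrp4 at 0.307, Myo10 at 0.324 and Kcnq5 at -0.348 were outside among raised genes.

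For comparison, 130 genes changed by AI were back at VEH with E2, that is within 0.3 of VEH in AI+E2 and at least 1.5-fold from AI. Of these 84 had been lowered and 46 raised by AI. From day 12 to VEH, 66 of the 84 were called higher and 29 of the 46 lower, where 69 of 87 and 20 of 32 members were. Over all genes, 6.91% were called higher and 3.23% lower. From day 12 to the mean of AI and AI+E2, 20 of the 84 were called higher and 6 lower, where 1 and 42 of 87 lowered members were. Of the 46, 18 were called higher and 1 lower, where 23 and 0 of 32 raised members were. The shares over all genes were 4.61% higher and 3.76% lower. That second contrast averages unlike groups for the genes that were back at VEH. Both sets of genes share all 12 arrays, and no test of the difference between them was made. Both were chosen on day 16 arrays that these contrasts use, so the calls were in part fixed by that choice.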

How the data were processed

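Each of 12 Affymetrix Rat Gene arrays measured the CL of a single rat. The log2 values of 29214 probe sets were made by the authors with RMA (R 2.12.2 in the submitters' processing notes). RMA equalises the arrays' distributions and tends to compress large differences. Groups came from the sample labels. Of the probe sets, 15310 had 1 symbol in the platform annotation, 323 several and 13581 none. Each of 14506 genes was read from its probe set with the highest mean, with no filter on dim probe sets. The fit used limma 3.58.1 (R 4.3.3) with 4 group means over all 12 arrays, and p values were adjusted by Benjamini-Hochberg over all genes. The number of arrays limits the precision. The fit was tested on simulated data. Alternatives covered other scalings, filters, the methods' t-test, thresholds and each array left out.

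The members and lists were chosen with earlier results of these data known. Given in every array were the 10 members lowered most and the 10 raised most, and the 5 largest rises and the 5 largest falls from day 12 to VEH among called members. Members shown beside a list or pattern were given by their differences, except Suv39h1 and Rara in every array and Kcne3 and Abcb1b in some arrays. Neighbours of a threshold were given by their differences alone. Which members to show beside a pattern was decided after their values were seen. Promoters came from the RefSeq table for GRCr8, and a gene with several promoters held a motif where any of them did. Figures were drawn with matplotlib 3.10.9.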

Additional observations from a re-analysis of the deposited data

Results flagged for a closer look

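A signal was found in probe sets outside the comparisons, those with no gene symbol in the annotation used here. Of 13581 such probe sets, 140 met the same thresholds, 109 lowered and 31 raised, which is 1.03% beside 0.820% of genes with a symbol. Of the 109, 74 formed a run in a stretch of 84 probe sets with neighbouring identifiers, 0 of which had a symbol. These 74 held 35 distinct value profiles, so some share probes and they are not 74 independent measurements. Their median log2 value was 6.32, 6.0 and 6.58 in the D12 arrays, 7.63, 8.54 and 7.88 in VEH, 6.18, 6.57 and 5.52 in AI and 5.92, 5.89 and 6.22 in AI+E2. The VEH arrays were thus high and the others overlapped. The median differences from VEH were -1.96 in AI and -2.03 in AI+E2. From day 12 to VEH the change ran from 0.59 to 2.35 with a median of 1.75. Of the 74, limma called 72 higher, beside 2.27% of probe sets with no symbol. The VEH arrays had served to choose these probe sets, so the sign and size of this change were in part fixed by that choice. These calls, and those of the other probe sets below, are a description only. What the run measures was not tested. Of the 66 other probe sets, 35 were lowered and 31 raised, and 15 of the lowered were called higher in VEH than on day 12.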

How the results depend on the processing

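Leaving out each array in turn, the rule gave 77 to 98 lowered and 29 to 39 raised genes, and 74 of the 119 members met it in all 12 such runs. Members called ranged from 59 to 73 higher and 16 to 22 lower in VEH against day 12, from 21 to 26 higher and 33 to 45 lower in the inhibitor groups against day 12, and from 16 to 30 higher and 13 to 21 lower for all day 16 arrays. The 16 arose without D12 replicate 1, and the cause was not tested. A threshold of 0.7 left 49 lowered and 19 raised genes. By the methods' t-test with Benjamini-Hochberg adjustment, 7 members were higher (69 by limma) and 2 lower (20) in VEH against day 12, 8 higher (24) and 18 lower (42) in the inhibitor groups, and 0 higher (29) and 0 lower (19) over all day 16 arrays. In that last comparison 3 and 2 passed an unadjusted p under 0.05, and its spread includes the difference between day 16 groups. Without adjustment the t-test called 71 and 18, and 31 and 53, in the first and second comparisons. The replicate numbers were not read as pairing the samples. Correlations of deviations from the group mean, between arrays of different groups, ran from -0.486 to 0.339 for same-numbered arrays. For different-numbered arrays they ran from -0.389 to 0.455, and the medians were -0.087 and 0.033. With the replicate block, 69 members were higher and 21 lower in VEH, 24 and 41 in the inhibitor groups and 27 and 17 over all day 16 arrays. Of the named results, 17 lost their call under the methods' t-test, those of Fdx1, Tgm2, Glrx5 and Fads1 in VEH among them, and 0 reversed. Calb2 in the inhibitor groups gained a call under 5 settings, both filters on low genes, quantile normalization applied again, and without D12 replicate 3 or AI replicate 3.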
